A study of Homo sapiens with 2 samples.

Results

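The ATP-binding cassette (ABC) transporter family was described in HepG2 cells, an established human liver cancer line that keeps many functions of hepatocytes, after treatment with hawk tea extract (HTE) or with its solvent, dimethyl sulfoxide (DMSO). HTE is an ethanol extract of the leaves, dried and dissolved in DMSO. The 44 genes are a list of family members by symbol, and a gene was measured through the array probes whose RefSeq transcript belongs to it. Of the 44 genes, 43 had a probe (60 probes in all), among 20490 named genes on the array. Total RNA was labelled with Cy3 and hybridised to 1-colour Agilent arrays, 1 array for the DMSO-treated cells and 1 array for the HTE-treated cells, both after 24 h. Both groups are the same unmodified cell line in the same medium. The dose was 200 μg/mL in the sample labels and 300 μg/mL in the text on the profiling. With 1 array per condition there was no test and no error between cultures, and what HTE did cannot be told apart from a difference between the cultures or hybridisations.

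ABC proteins bind and hydrolyse ATP, and most of them use it to move a substrate across a membrane. In liver they load cholesterol and phospholipid onto lipoproteins, secrete bile salts, phospholipid, sterols and drug conjugates into bile, and return conjugates to the blood. Other members sit in mitochondria, lysosomes, peroxisomes or the endoplasmic reticulum, and the E and F subfamilies have no membrane domain and act in translation. The study used HepG2 cells to follow cholesterol handling by hepatocytes, and the question here is whether the transporters of sterols and of other substrates differed between the arrays.

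A value for each array is the processed spot signal, a background-subtracted intensity. Ratios are log2 ratios of HTE over DMSO after each array was scaled to its 75th percentile, so 1 is a 2-fold higher signal on the HTE array and -1 a 2-fold lower one. A probe counted as measured where the scanner software called it well above background. Each array had 58717 spots that are not controls, and 60.6% of them on the DMSO array and 56.6% on the HTE array were well above background. The 9 hepatocyte markers tested, albumin (ALB) among them, were all well above background on both arrays, with log2 ratios from -0.36 (FGB) to 0.21 (SERPINA1). Of the markers of other cells, 2 of 3 leukocyte genes, 2 of 3 endothelial genes and 1 of 3 fibroblast genes were well above background on both arrays. The endothelial gene PECAM1 had a signal of 804 on the DMSO array and 203 on the HTE array, VWF 182 and 104, and the fibroblast gene COL1A1 454 and 261. CDH5, DCN, COL1A2 and CD3E were at background on both arrays by this call, the leukocyte genes PTPRC and CD68 had log2 ratios of 0.14 and 0.46, and the part of these genes in the results below was not tested.

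Of the 43 genes with a probe, 33 were well above background on both arrays, 3 on the DMSO array only, none on the HTE array only, and 7 on neither. None of the 36 genes measured on at least 1 array was called 2-fold higher or 2-fold lower after HTE. The 3 genes on the DMSO array only had no measurable fold. They entered the counts with a ratio of 0 and could not have been called lower. Among the 23752 genes and unnamed transcripts measured, 5.25% (1248) reached 2-fold in the higher direction and 3.03% (720) in the lower, which became 883 and 1209 without scaling. At 1.5-fold, 4 of the 36 genes (11.1%) were higher and 2 (5.56%) were lower, against 12.4% and 10.5% of all genes. The 33 log2 ratios ran from -0.66 (ABCG8) to 0.77 (ABCA5), with a median of -0.032, and 16 were above 0 and 17 below 0. The middle of the family, from -0.33 to 0.35 between its quartiles, lay close to that of the 21000 genes and transcripts measured on both arrays, from -0.29 to 0.29 with a median of -0.0049. In bulk RNA, fewer cells that express a gene and less RNA per cell cannot be told apart.

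**Figure D1:**
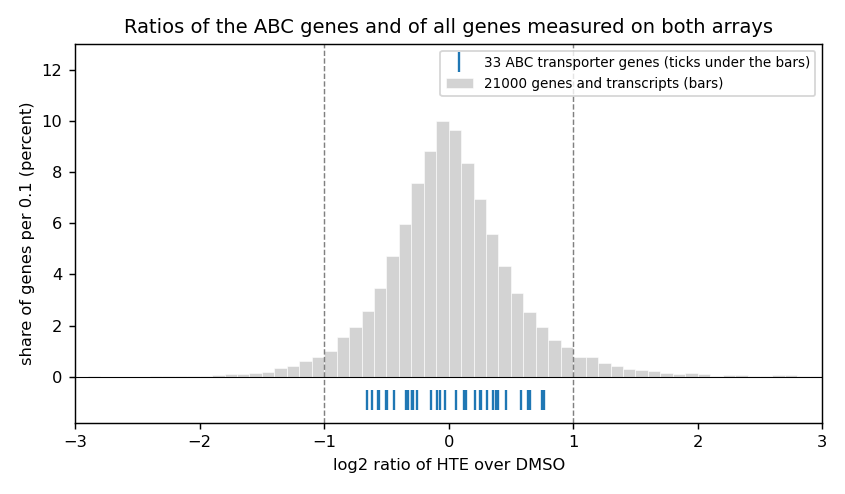
Grey bars show the share of the 21000 genes and transcripts well above background on both arrays in steps along the log2 ratio, HTE over DMSO (horizontal axis), and blue ticks show the 33 ABC transporter genes. The ABC genes lie between -0.66 and 0.77, inside the dashed lines that mark 2-fold; with scaling to spike-in RNA all 33 lie below 0.

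The error that the arrays themselves show is smaller than many of these ratios. The median SD of the log2 ratio among replicate spots of a probe was 0.051 (688 probes with at least 5 spots), and that among different probes of a gene was 0.16 (4137 genes). The scanner software gives its own error for each spot, which came to a median of 0.20 for a log2 ratio of the 33 genes. It ran from 0.204 to 0.316 and was near its lowest value for most genes, so it acted almost as 1 fixed cutoff. The ratio was larger than this software error for 23 of the 33 genes and larger than 2 times it for 13. None of these errors holds the spread between cultures. The scaling of the arrays sets where 0 lies. Without scaling the median of the ABC genes was -0.20, with 13 of the 33 above 0, and with scaling to the spike-in RNA none was above 0, as the median of all genes then lay at -1.37.

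**Figure D2:**
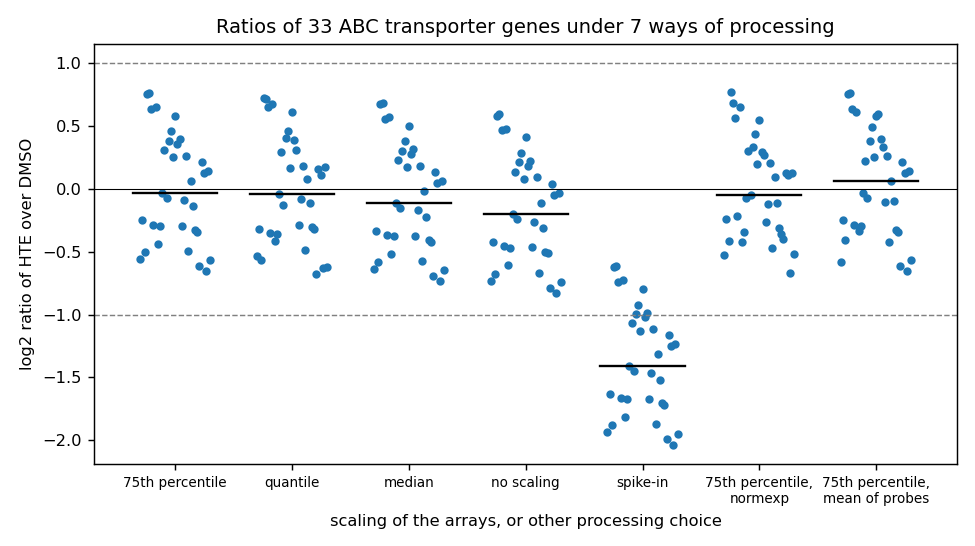
Each point is the log2 ratio of HTE over DMSO of 1 of the 33 ABC transporter genes under 7 ways of processing, the black lines are medians and the dashed lines mark 2-fold. The median was -0.032 with scaling to the 75th percentile, -0.20 without scaling and -1.41 with scaling to the spike-in RNA, under which every gene lies below 0.

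The exporters of cholesterol and phospholipid differed in opposite directions. ABCA1, which passes cellular cholesterol and phospholipid to apolipoprotein A-I, had a signal of 16990 on the DMSO array and 10240 on the HTE array, a log2 ratio of -0.56 (software error of 0.20). Its other probe gave -0.61, with signals of 559 and 326. Both ABCA1 probes were thus lower on the HTE array, by 1.47-fold at the brighter one. The promoter of ABCA1 is shown because it carries an element of the liver X receptors, the sterol sensors that control this gene. The RefSeq window from 250 bases before to 50 after the start site is chr9:104928106-104928405 on the minus strand of GRCh38.p14. Capitals mark the element, on the reverse strand, as a loosened direct repeat of the nuclear receptor site spaced by 4 bases (DR4). It begins 69 bases before the start site.
ABCA1: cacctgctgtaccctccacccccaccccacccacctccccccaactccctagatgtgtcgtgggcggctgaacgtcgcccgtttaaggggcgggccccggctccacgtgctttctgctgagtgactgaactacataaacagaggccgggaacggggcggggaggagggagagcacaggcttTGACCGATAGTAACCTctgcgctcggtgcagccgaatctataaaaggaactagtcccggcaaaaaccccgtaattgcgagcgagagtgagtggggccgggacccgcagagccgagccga
The loosened repeat was written to take this known ABCA1 element, so its match here is given by construction. Searched on both strands, it is in 0.094% of the 35116 RefSeq promoter windows. A match describes the sequence and shows no binding.

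ABCG5 and ABCG8 encode the partners of the transporter that secretes sterols into bile, and the genes lie head to head. ABCG5 had a mean signal of 2696 on the DMSO array and 2612 on the HTE array, and ABCG8 had signals of 9235 and 5204. The log2 ratio was 0.13 for ABCG5 and -0.66 for ABCG8, the lowest of the family and a fold of 1.58. With the main scaling ABCG8 was therefore lower, and ABCG5 was within its software error of 0.20. Without scaling ABCG5 turned to -0.045 while ABCG8 stood at -0.83. Spike-in scaling gave -1.25 for ABCG5 and -2.03 for ABCG8, so only the lower ratio of ABCG8 against ABCG5 held throughout. Over 9 replicate spots of the ABCG5 probe, the log2 ratio was 0.13 ± 0.038 (SD), and the spots of the arrays did not overlap, with -0.61 to -0.54 relative to the 75th percentile on the DMSO array and -0.49 to -0.42 on the HTE array. Scaling moves all spots of an array alike, so whether they overlap depends on it. ABCG8 had 1 spot per array. The start sites of both genes are 132 bases apart, so their promoter windows share 231 bases, which are in capitals in the ABCG8 window, chr2:43838721-43839020 on the plus strand of GRCh38.p14. The ABCG5 window runs over the same capitals on the minus strand.
ABCG8: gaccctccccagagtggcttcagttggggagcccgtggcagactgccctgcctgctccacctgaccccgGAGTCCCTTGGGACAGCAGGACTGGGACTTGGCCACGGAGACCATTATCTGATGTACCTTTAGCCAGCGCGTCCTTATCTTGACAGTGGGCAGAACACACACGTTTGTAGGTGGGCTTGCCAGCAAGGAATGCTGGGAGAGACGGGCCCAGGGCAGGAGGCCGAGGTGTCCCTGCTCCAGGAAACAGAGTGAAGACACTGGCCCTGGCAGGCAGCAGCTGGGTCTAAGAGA
Transcripts that start from this common stretch thus had unequal ratios at their probes.

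ABCA7, a phospholipid transporter related to ABCA1, had signals of 3949 and 5450 and a log2 ratio of 0.64, a fold of 1.55 in the other direction from ABCA1. ABCG4, a sterol exporter known mainly from brain, was dim, with signals of 284 and 292 and a log2 ratio of 0.21. ABCG1, which exports cholesterol to high-density lipoprotein, had a signal of 86.7 on the DMSO array and 20.2 on the HTE array. Only the DMSO value was well above background, and after scaling (-5.54) it lay under the lowest value called so on the HTE array (-5.24), so no fold is given for ABCG1. Of the 5 genes of the group measured on both arrays, 3 were higher and 2 lower with the main scaling. Without scaling 2 were higher, and none with spike-in scaling. With the main scaling ABCG4 and ABCG5 were within their software errors of 0.24 and 0.20.

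**Figure D3:**
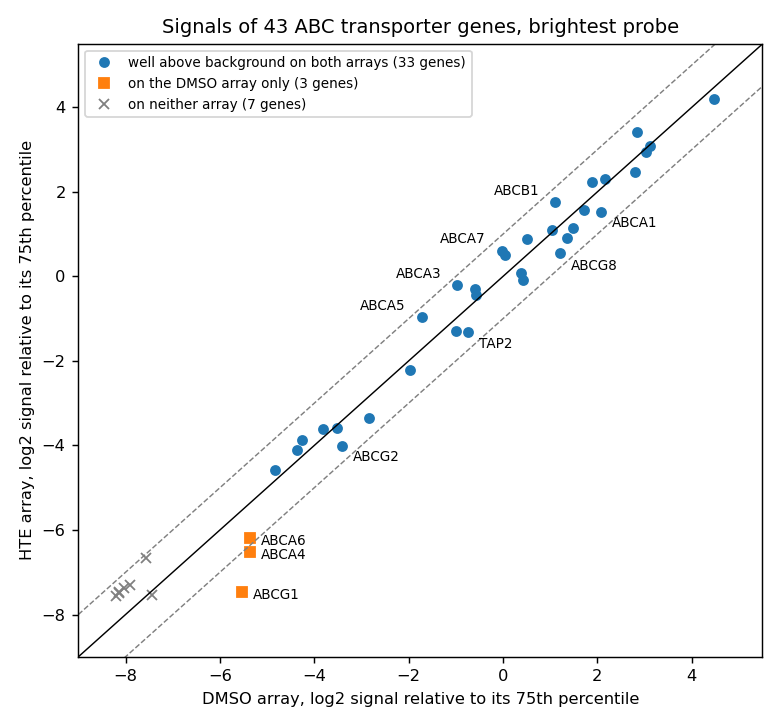
Each symbol is the brightest probe of 1 of 43 ABC transporter genes, with the log2 signal relative to the 75th percentile on the DMSO array (horizontal) and the HTE array (vertical); the solid line is equality and the dashed lines mark 2-fold. All 33 genes well above background on both arrays lie inside the dashed lines, and ABCG1 and ABCA4 lie outside them at HTE signals that are not above background.

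The other A subfamily genes are mostly lipid transporters of lysosomes and secretory granules. ABCA5, a lysosomal member, had the highest ratio of the family, with signals of 1215 and 1835 and a log2 ratio of 0.77 (fold of 1.70). ABCA3, which loads surfactant lipid into lamellar bodies in the lung, had signals of 2061 and 3082 and a log2 ratio of 0.75. Each of these differed from 0 by more than 3 times the software error of 0.20, and both stayed above 0.5 without scaling (0.59 and 0.58) but were below 0 with spike-in scaling. ABCA2, a lysosomal lipid transporter best known from brain, was lower at both of its probes, with log2 ratios of -0.50 and -0.31. ABCA9, the brightest gene of the family, had signals of 89807 and 65423 at its 1 probe and a log2 ratio of -0.29. Whether this probe also detects other transcripts was not tested. ABCA10 had a log2 ratio of -0.25. ABCA5, ABCA6, ABCA8, ABCA9 and ABCA10 follow one another among the coding genes of chromosome 17, and of the 3 of them measured on both arrays, ABCA5 was higher and its neighbours ABCA9 and ABCA10 were lower. ABCA6 (signals of 97.5 and 49.1) and ABCA4, the retinoid transporter of photoreceptors (98.1 and 39.2), passed the background call on the DMSO array only, at a scaled value under the lowest called so on the HTE array, and have no fold. A measurement on the DMSO array only was common, with 9.64% of all genes kept against 1.95% on the HTE array only, and applied to 3 of the 36 ABC genes. ABCA8, ABCA12, which carries ceramide in skin, and ABCA13 passed the call on neither array.

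The transporters of the bile canaliculus, the duct-facing membrane of hepatocytes, were also split. ABCB1 (P-glycoprotein, the multidrug exporter) had mean signals of 8648 and 12051 over 10 spots per array. The spots ran from 1.03 to 1.14 relative to the 75th percentile on the DMSO array, with a median of 1.12, and from 1.67 to 1.83 on the HTE array, with a median of 1.76. With the main scaling every HTE spot was above every DMSO spot. The log2 ratio was 0.65 ± 0.041 (SD over the 10 spots, which are not separate cultures), and the second ABCB1 probe gave 0.57. ABCC2, the canalicular exporter of bilirubin and other conjugates, had signals of 28781 and 38222 and a log2 ratio of 0.58. ABCG2, the breast cancer resistance protein that exports urate and drugs, had signals of 380 and 220 and a log2 ratio of -0.62 (software error of 0.25). ABCB4, which moves phosphatidylcholine into bile and is the next coding gene to ABCB1, had signals of 2029 and 1467 and a log2 ratio of -0.30. With the main scaling the multidrug exporter was thus higher and its lipid-moving neighbour lower on the HTE array. Without scaling the directions of the 2 probes also differed (0.48 and -0.47). Spike-in scaling put ABCB1 (-0.73), ABCB4 (-1.67) and ABCC2 (-0.80) all below 0. ABCB11, the bile salt export pump, passed the background call on neither array. Among the carriers that bring bile salts and drugs into hepatocytes, SLC10A1, SLCO1B1 and SLCO1B3 did not either.

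**Figure D4:**
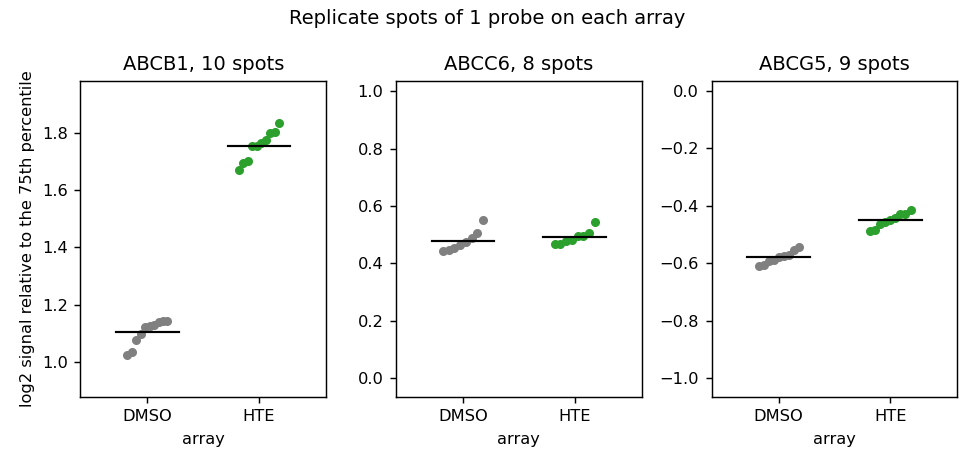
Points are the replicate spots of 1 probe of ABCB1, ABCC6 and ABCG5 on each array, as log2 signal relative to the 75th percentile of the array, and black lines are means; the 3 panels span the same range. With this scaling the ABCB1 and ABCG5 spots do not overlap between the arrays (log2 ratios of 0.65 and 0.13). The ABCC6 spots do (0.013). Scaling moves all spots of an array alike, so overlap depends on it, and without scaling the ABCG5 log2 ratio was -0.045.

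The multidrug resistance proteins of the C subfamily, which export glutathione, glucuronide and sulfate conjugates and cyclic nucleotides, were mostly higher, 5 of 7 with a median of 0.35, with the same 5 without scaling (median of 0.18) and none with spike-in scaling. ABCC10 had a log2 ratio of 0.46 and ABCC4, an exporter of cyclic nucleotides, of 0.39. ABCC4 was dim, with signals of 209 and 244 and a software error of 0.25. ABCC1, the exporter of glutathione conjugates and leukotriene C4, had 0.38, and ABCC3, which returns conjugates from hepatocytes to blood, 0.35. ABCC11, which is known for its part in earwax type, had a log2 ratio of 0.25, within its software error of 0.32. With ABCC2 and ABCC8 included, 7 of the 9 C subfamily genes measured on both arrays were higher, the only subfamily of 7 with a median above 0 (0.35), which was -1.02 with spike-in scaling. The share of all genes above 0 was 49.5%. The sulfonylurea receptor ABCC8, a subunit of potassium channels, was dim, with signals of 195 and 207. Its log2 ratio of 0.262 was just within its software error of 0.263. The other sulfonylurea receptor, ABCC9, and the chloride channel CFTR were not well above background.

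Probes of 1 gene differed most in this subfamily. ABCC5, an exporter of cyclic nucleotides, gave -0.29 (log2 ratio) at the brightest of its probes, which was designed on the transcript NM_005688, with signals of 5229 and 3793. The other ABCC5 probes, both designed on the transcript NM_001023587, gave 0.65 and 0.65, with signals of 2671 and 3718 and of 461 and 642. The direction of ABCC5 thus differed between its probes, the mean over them was above 0, and with 1 probe on the first transcript probe and transcript cannot be told apart. ABCC3 gave 0.35 at its brightest probe and 0.84, with signals of 5530 and 8791, on the transcript NM_001144070. ABCC6, a liver protein that supports the release of ATP, had 4 probes with log2 ratios from -0.32 to 0.013. With the main scaling, 8 replicate spots of one of them overlapped between the arrays (0.013 ± 0.023, SD). Here too the overlap depends on the scaling. ABCC6 has close pseudogene copies that its probes may also detect, and a probe for ABCC6P1 gave -0.099. In all, 11 of the 33 genes had several probes measured on both arrays, and in 9 of them all probes had the same sign, the exceptions being ABCC5 and ABCC6. Of all 4137 genes with several probes, 69.2% had probes of the same sign.

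**Figure D5:**
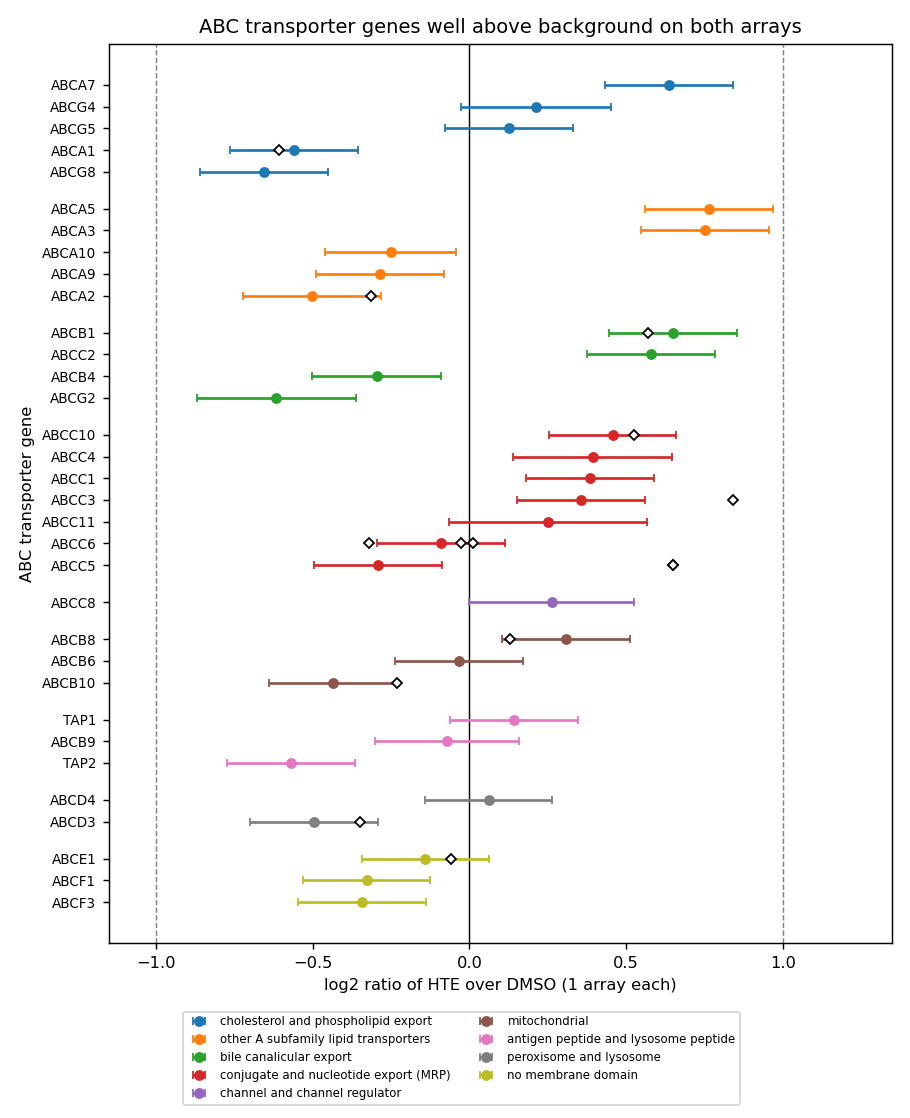
Filled points are the log2 ratios of HTE over DMSO (horizontal axis) of the brightest probe of 33 ABC transporter genes, coloured by role, with bars for the error given by the scanner software, and open diamonds are other probes of the same gene. No gene reaches the dashed lines at 2-fold, and the diamonds of ABCC5 (0.65) and ABCC3 (0.84) lie apart from their filled points; with spike-in scaling all filled points would lie below 0.

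The remaining transporters of organelles lay between -0.57 (TAP2) and 0.31 (ABCB8). In mitochondria, ABCB8 had a log2 ratio of 0.31 and ABCB10, which takes part in heme synthesis, of -0.44, with the second probe of each on the same side (0.13 and -0.23). ABCB6, a porphyrin transporter, had -0.032. TAP1 and TAP2 form the pump that brings peptides into the endoplasmic reticulum for loading on HLA class I. TAP1 had signals of 18004 and 17641 and a log2 ratio of 0.14, which was -0.029 without scaling, and TAP2 had signals of 2401 and 1437 and a log2 ratio of -0.57. In this pump too, with the main scaling, 1 partner was near 0 and 1 was lower. A second TAP2 probe, on the transcript NM_018833, passed the background call on neither array. ABCB9, which moves peptides into lysosomes, had -0.072. ABCD3, a peroxisomal transporter of branched fatty acids and bile acid intermediates, was lower at both probes (-0.49 and -0.35). ABCD4, which acts in the release of cobalamin from lysosomes, had a log2 ratio of 0.061, and the fatty acid transporter ABCD2 was not well above background.

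The members without a membrane domain were lower at all 3 genes measured, under every alternative that gave a value. ABCE1, which splits ribosomes after termination, had signals of 13207 and 10642 and a log2 ratio of -0.14, and -0.058 at its other probe. ABCF1, which binds the initiation factor eIF2, had signals of 27991 and 19800 and a log2 ratio of -0.33. ABCF3 had signals of 11254 and 7883 and a log2 ratio of -0.34. The ratio of ABCE1 was within the software error of 0.20. ABCF2 had no probe by its current transcript. The transcript of 1 probe is now assigned to ABCF2-H2BK1, a read-through gene that includes ABCF2, and gave signals of 2928 and 3313 and a log2 ratio of 0.35.

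The 7 genes on neither array cannot be read for a change. Their own log2 ratios ran from -0.092 to 0.91, and the 20852 probes that were not well above background on either array had a median of 0.66, a difference in the lowest values of the arrays.

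Other sequence elements were searched for in the 54 RefSeq promoter windows of 37 of the 44 genes, some of which overlap within a gene. The core of the aryl hydrocarbon receptor element (GCGTG) was in 25 windows (46.3%) against 36.5% of all windows, and the antioxidant response core (TGACNNNGC) was in 12 (22.2%) against 13.3%. The E-box CACGTG was in 9 (16.7%) against 7.26%, ABCA1 and ABCG2 among them, and may overlap other motifs. Both strands were searched, and these shares are descriptions of sequence.

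Genes that work with the transporters were described as lists. All 12 sterol partners were measured, of which 2 reached 2-fold in the higher direction and none in the lower, where the shares over all genes were 5.25% and 3.03%. NPC1L1, the cholesterol importer, had signals of 2973 and 5579 and a log2 ratio of 1.08, which was under 2-fold without scaling (0.91) and narrowly so with median scaling, and below 0 with spike-in scaling (-0.30). NR1H2, the liver X receptor beta, passed the background call on the HTE array only (signals of 74.9 and 161). Its log2 ratio of 1.27 was taken against its own DMSO signal, which was not called well above background. The NR1H2 ratio was 0.72 after normexp correction and not above 0 with spike-in scaling. NR1H3, the liver X receptor alpha, had 0.042, and MYLIP, a liver X receptor target, -0.62, the lowest of the list. In the same list LPCAT3 had -0.13 and NPC1 0.80, and the activity of the receptors was not tested. Of the 11 sterol partners on both arrays, 6 were above 0 and 5 below, with a median of 0.042. None of 12 regulators of drug and bile transporters reached 2-fold, with a median of 0.23, from -0.85 for NR1H4, the bile acid receptor, to 0.87 for NR0B2, which that receptor induces. NR1I2, the pregnane X receptor that controls ABCB1, had 0.63. In the same list AHR, the aryl hydrocarbon receptor, had 0.81, NR1I3 0.0040, KEAP1 -0.20 and NFE2L2 -0.30. Of these 12 regulators, 8 were above 0 and 4 below, and their part in the transporter ratios was not tested. Of 12 carriers for uptake and exit, 9 were measured, and SLC51A alone was at least 2-fold higher (log2 ratio of 1.44, signals of 358 and 866, but 0.066 with spike-in scaling), while SLC51B, the other subunit of the same bile acid exporter, had -0.63. No gene reached 2-fold among 15 peptide loading partners (median of 0.035, from -0.57 for ERAP2 to 0.37 for HLA-E), 10 partners of ABCE1 and ABCF1 (median of -0.12, from -0.41 for GSPT2 to 0.13 for EIF2AK4) or 10 peroxisome and cobalamin partners (median of 0.059, from -0.51 for MMACHC to 0.84 for LMBRD1, the lysosomal partner of ABCD4). With spike-in scaling the medians of all 6 lists were below 0, and without scaling 1 was above 0.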

How the data were processed

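HepG2 RNA was measured on Agilent SurePrint G3 1-colour arrays, 1 per condition, on 1 slide. The authors deposited the Feature Extraction output (version 11.5.1.1 in the file headers, 10.7 in the submitters' processing notes; design on GRCh37), a processed signal per spot. These intensities were background-subtracted and detrended within each array and not scaled between arrays before the authors deposited them. The 0 or 1 flags (other values) for outlier, saturated and well-above-background spots were deposited in the same files. The study used a 2-fold cutoff and its methods name no scaling.

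Control spots and outlier spots (440 and 459) were left out, and no spot was saturated. The 75th percentile, a signal of 4020 (DMSO) and 3570 (HTE), was subtracted on the log2 scale, and replicate spots were averaged per probe. A probe counted as well above background where at least 0.5 of its spots were, and was kept if so on at least 1 array. Where only 1 array had it, the ratio is a bound, taken against the probe's own signal on the other array or that array's lowest signal well above background, whichever is higher, and a bound under 1-fold entered medians as 0. Probes were named through RefSeq accessions in the gene table of GRCh38.p14 (28146 of 50532 probes with usable spots on both arrays). The probe with the highest mean signal stood for a gene. The table's build is not that of the array design, so it was used for names and gene order, and none of its coordinates is given. Promoter windows came from a RefSeq table of GRCh38.p14.

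There are no replicates, so no p-value is given, and the number of arrays limits the precision. The members and lists were chosen with earlier results of these data known. Every member is accounted for, and partner genes are named where at least 2-fold apart or, if none, as the largest rise and fall. NR1H3, MYLIP, LPCAT3, NPC1, NR1I2, NR1I3, AHR, KEAP1, NFE2L2, SLC51B, SLC10A1, SLCO1B1, SLCO1B3, ABCF2-H2BK1 and ABCC6P1 were named beside this rule, after their values were seen. The promoter motifs were chosen then too. The alternatives were no scaling, scaling to the median or to the E1A spike-in probes, quantile normalization, normexp correction (offset 50, on the median signal, where the mean signal had been planned), no filter, a filter on both arrays, own values in place of bounds, outlier spots kept, the mean over probes, the next brightest probe, and cutoffs of 1.5-fold and 3-fold. The steps were tested on simulated data. Software was Python 3.11.15 (pandas 2.3.3, numpy 2.4.6, matplotlib 3.10.9) and, for normexp and quantile normalization, limma 3.58.1 in R 4.3.3. A further promoter motif is not reported here.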

Additional observations from a re-analysis of the deposited data

How the results depend on the processing

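Of the 36 ABC transporter genes kept, none was at least 2-fold higher under any alternative at that cutoff, and none was lower except with spike-in scaling (28) and with own values of dim probes (2, ABCG1 and ABCA4, whose HTE signals are not above background). A 1.5-fold cutoff gave 4 higher and 2 lower, and a 3-fold cutoff none. The median of the 36 was 0 and became -0.081 without scaling, -1.29 with spike-in scaling, -0.092 with normexp correction, 0.061 without a filter (43 genes) and -0.081 with own values. Spike-in scaling turned the sign of 16 genes, no scaling of TAP1, ABCD4 and ABCG5, median scaling of ABCD4, and the mean over probes or the next brightest probe of ABCC5, and the other alternatives turned none. The cause was not tested.

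Of 7 subfamilies, 1 had a median above 0, against 0 with spike-in scaling, 2 without a filter and 2 with the next brightest probe. Of 9 role groups 4 had one, against 2 without scaling, 0 with spike-in scaling and 2 with the next brightest probe. The count was 3 with normexp correction, 3 with own values and 5 without a filter. Of 6 partner lists 4 had one, against 1 without scaling, 2 with median scaling, 0 with spike-in scaling and 2 with the mean over probes. It was 5 lists without a filter and 3 with the next brightest probe. All genes gave 1248 higher and 720 lower, against 111 and 18562 with spike-in scaling, 825 and 468 with normexp correction, 2297 and 1270 without a filter, 225 and 113 with the next brightest probe (fewer genes), 2953 and 2505 at 1.5-fold and 422 and 129 at 3-fold, and 1209 lower without scaling (883 higher) and 1320 lower with own values. Higher genes were 63.4% of the changed ones, 42.2% without scaling and 0.594% with spike-in scaling. Signal over background limits ABCG1, ABCA4 and ABCA6. No paired analysis was possible because each condition was hybridised once.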
